A study of Mus musculus with 3 samples.

Results

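Clade B serpins are protease inhibitors and their relatives that mostly stay inside the cell, and 10 of their genes were followed here through the mouse ear epidermis: Serpinb2, Serpinb3a, Serpinb3b, Serpinb3c, Serpinb5, Serpinb6c, Serpinb7, Serpinb8, Serpinb11 and Serpinb12. They were chosen by symbol and are 10 of the 31053 genes in the count tables, which list 16 further genes of this clade. The data are 3 replicate single-cell libraries of epidermal cells from the ear skin of C57BL/6N mice aged 9 weeks, with no treatment and no other genotype. Nothing states whether the replicates are separate animals, so the p-values describe the scatter of libraries, which may be technical. The cells were released by dispase, then trypsin, and frozen before use, and the 10x 5' chemistry counts UMIs (unique molecular identifiers, each a captured transcript). Levels are in CPM, the UMIs of a gene in a library and cell group, scaled to the same UMI total in all of them.

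Serpins inhibit proteases by offering a reactive loop as bait. When the protease cuts it, the loop inserts into the body of the serpin and traps the enzyme. Clade B members lack a classical secretion signal, and several act on lysosomal or trypsin-like proteases released inside or around a keratinocyte. In the epidermis, cells divide in the basal layer, move up through the spinous layer and end in the granular layer, where they build the cornified envelope before they die, and proteases take part in both that building and the later shedding.

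Of 6078 barcodes, 5340 passed the limits of 500 or more genes and 10% or less mitochondrial UMIs, with 944, 2212 and 2184 in replicates 1, 2 and 3. Basal cells (2312) had at least 0.5% of their UMIs in Krt5 and Krt14 and less than 0.5% in Krt1 and Krt10. Spinous cells (2295) had at least 0.5% in Krt1 and Krt10 and less than 1% in loricrin (Lor), and granular cells (424) had at least 1% in Lor. Follicle cells (122) had at least 2 of the 5 transcripts Sox9, Fst, Lgr5, Cd34 and Wif1, and 187 cells met no definition. Of markers that the definitions did not use, the summed level of 6 granular genes such as Flg and Ivl was 24634 to 34395 CPM in granular and 320 to 610 in spinous cells. The sum of 5 follicle genes such as Lhx2 was 2354 to 5266 in follicle and 278 to 469 in basal cells. The 5 basal genes such as Itga6 stood at 2734 to 2985 in basal and at 295 to 340 in spinous cells, and at 3533 to 4972 in follicle cells. There Krt15 made up 2088 to 3065 of the sum, against 917 to 1177 in basal cells, while Itga6 stood at 112 to 165 against 283 to 299 and Itga3 at 17.3 to 30.1 against 76.2 to 82.0. The 5 spinous genes such as Krtdap stood at 722 to 1475 in basal and at 18026 to 19588 in spinous cells, but stood at 38614 to 42244 in granular cells, so they mark both upper groups. Median depth per cell was 8452 UMIs in basal, 14720 in spinous, 19883 in granular and 4702.5 in follicle cells, and 11 barcodes occurred in more than 1 library.

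Of the 10 genes, 9 lie within 749 kb of chromosome 1 (GRCm38, 106861173 to 107610484, GENCODE M21), in the order Serpinb5, Serpinb12, Serpinb3a, Serpinb3b, Serpinb3c, Serpinb11, Serpinb7, Serpinb2 and Serpinb8. The remaining gene, Serpinb6c, lies on chromosome 13 (33879816 to 33905708, minus strand). The 3 Serpinb3 genes are recent copies of each other on the minus strand. Their coding sequences are 93.1% identical between Serpinb3b and Serpinb3c, 92.9% between Serpinb3a and Serpinb3b and 91.3% between Serpinb3a and Serpinb3c. Across the first 150 transcript bases, near the end that 5' counting reads, identity was 84.4%, 54.3% and 46.6% for the same pairs. Bases without a partner counted as differences, so transcript models that start at different places score lower. These shares therefore do not show how well reads tell the copies apart, and identity over paired bases alone was not computed. Serpinb3a is 90.7% identical over these bases to its counted neighbour Serpinb3d, which is not among the 10 genes and had 21 spinous UMIs, and 89.2% in coding sequence. Counts of Serpinb3a, Serpinb3b and Serpinb3c are therefore less certain as single genes. The annotated exons of Serpinb3b and Serpinb3c share 35 bases, and those of Serpinb2 share 291 bases with its neighbour Serpinb10. Elsewhere among the 10 genes coding identity was at most 64.7%, between Serpinb6c and Serpinb8.

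**Figure D1:**
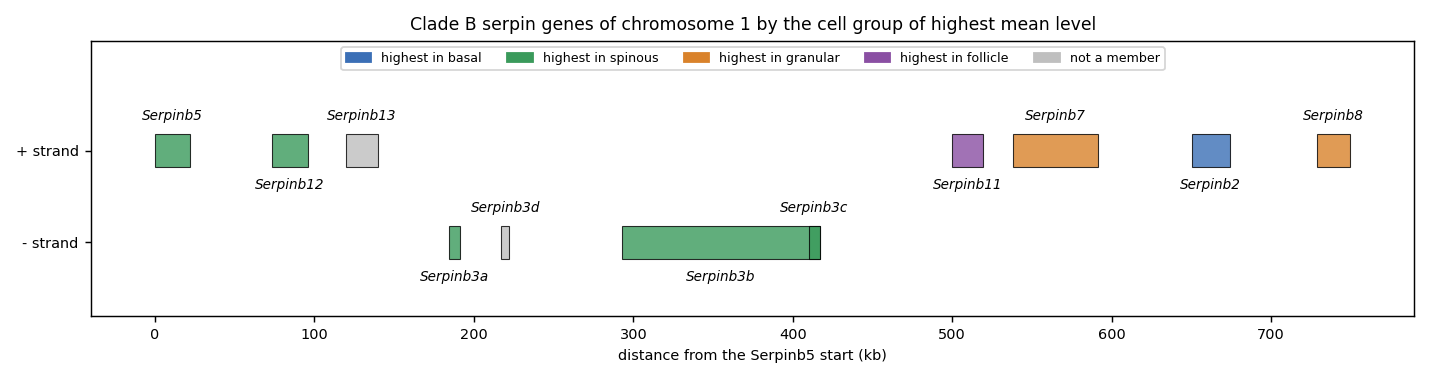
The x axis is the distance in kb from the start of Serpinb5 on chromosome 1, with genes of the plus strand above and of the minus strand below, and colours give the group with the highest mean level. Neighbours Serpinb5, Serpinb12 and the Serpinb3 genes are highest in spinous cells, while the stretch from Serpinb11 to Serpinb8 holds genes highest in follicle, granular and basal cells.

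Promoters of the Serpinb3 copies are shown because the copies differ in level, and the windows let a reader see what they share around the start. These are RefSeq windows on GRCm38.p6 from 250 bases before to 50 after the RefSeq start, 5' to 3', and capitals mark TATAAA on either strand. Serpinb3a is chr1:107052254-107052553, Serpinb3b chr1:107161065-107161364 and Serpinb3c chr1:107278322-107278621, all on the minus strand.
Serpinb3a: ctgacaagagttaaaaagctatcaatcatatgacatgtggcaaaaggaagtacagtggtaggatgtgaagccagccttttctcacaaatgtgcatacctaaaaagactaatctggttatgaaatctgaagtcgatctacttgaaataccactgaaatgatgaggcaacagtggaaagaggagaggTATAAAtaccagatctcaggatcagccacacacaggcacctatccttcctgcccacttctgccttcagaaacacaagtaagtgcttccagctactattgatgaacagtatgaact
Serpinb3b: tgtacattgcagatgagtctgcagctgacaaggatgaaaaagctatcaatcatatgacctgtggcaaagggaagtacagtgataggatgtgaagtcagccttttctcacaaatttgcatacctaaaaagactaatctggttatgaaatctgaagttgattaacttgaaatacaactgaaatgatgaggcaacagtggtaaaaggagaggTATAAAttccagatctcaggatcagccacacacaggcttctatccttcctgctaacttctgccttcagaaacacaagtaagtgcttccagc
Serpinb3c: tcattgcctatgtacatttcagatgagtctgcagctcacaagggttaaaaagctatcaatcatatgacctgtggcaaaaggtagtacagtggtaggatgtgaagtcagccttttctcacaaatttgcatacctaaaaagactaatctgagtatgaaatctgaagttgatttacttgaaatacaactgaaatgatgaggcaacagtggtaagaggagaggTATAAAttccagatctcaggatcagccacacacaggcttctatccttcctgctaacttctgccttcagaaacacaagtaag
Window identity, with bases lacking a partner counted as differences, was 90% between Serpinb3b and Serpinb3c. It was 79.3% between Serpinb3a and Serpinb3b and 74.6% between Serpinb3a and Serpinb3c. Each window holds TATAAA once, starting 65, 41 and 31 bases before the RefSeq start in Serpinb3a, Serpinb3b and Serpinb3c. Of 32851 promoter windows 13.6% hold it on either strand. The bases after TATAAA are nearly the same in these copies, so the distances reflect where the start was annotated. The windows are therefore shifted against each other, which lowers the identities given here. Identity over the paired bases alone was not computed.

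The next windows belong to Serpinb12, highest in spinous cells, and to genes that were highest in basal, granular or follicle cells. They are shown for their match to the AP-1 motif TGANTCA (either strand, palindromic apart from N), the site of the Fos and Jun factors. Serpinb2 is chr1:107511173-107511472, Serpinb12 chr1:106934199-106934498, Serpinb7 chr1:107422439-107422738, Serpinb8 chr1:107589756-107590055 and Serpinb11 chr1:107362064-107362363, all on the plus strand. Capitals mark AP-1, TATAAA, the C/EBP motif TTNNGCAA and a loose NF-kB-like pattern on either strand. That pattern fixes only G at its start and C at its end, with any bases between.
Serpinb2: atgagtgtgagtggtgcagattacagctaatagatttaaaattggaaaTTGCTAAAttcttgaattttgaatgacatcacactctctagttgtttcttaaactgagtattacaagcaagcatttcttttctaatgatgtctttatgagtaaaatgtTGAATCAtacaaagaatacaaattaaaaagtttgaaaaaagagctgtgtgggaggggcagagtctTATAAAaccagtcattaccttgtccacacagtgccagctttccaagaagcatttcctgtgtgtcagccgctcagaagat
Serpinb12: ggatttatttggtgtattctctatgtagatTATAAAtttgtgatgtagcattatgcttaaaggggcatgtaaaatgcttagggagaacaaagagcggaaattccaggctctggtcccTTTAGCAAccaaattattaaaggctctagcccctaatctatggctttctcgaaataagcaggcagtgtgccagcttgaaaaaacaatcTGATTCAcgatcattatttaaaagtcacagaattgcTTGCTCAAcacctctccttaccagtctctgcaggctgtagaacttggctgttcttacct
Serpinb7: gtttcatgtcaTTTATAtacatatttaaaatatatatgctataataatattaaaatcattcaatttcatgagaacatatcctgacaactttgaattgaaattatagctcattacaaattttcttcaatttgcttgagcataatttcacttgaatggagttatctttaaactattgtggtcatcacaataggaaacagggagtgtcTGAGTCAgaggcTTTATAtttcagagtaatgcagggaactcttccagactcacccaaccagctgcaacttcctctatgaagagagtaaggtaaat
Serpinb8: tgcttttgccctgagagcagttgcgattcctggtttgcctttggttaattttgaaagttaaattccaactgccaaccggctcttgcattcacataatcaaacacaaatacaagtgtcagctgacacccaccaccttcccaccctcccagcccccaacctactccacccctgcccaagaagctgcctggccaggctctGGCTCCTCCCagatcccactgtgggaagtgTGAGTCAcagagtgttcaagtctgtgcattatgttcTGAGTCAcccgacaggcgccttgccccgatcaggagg
Serpinb11: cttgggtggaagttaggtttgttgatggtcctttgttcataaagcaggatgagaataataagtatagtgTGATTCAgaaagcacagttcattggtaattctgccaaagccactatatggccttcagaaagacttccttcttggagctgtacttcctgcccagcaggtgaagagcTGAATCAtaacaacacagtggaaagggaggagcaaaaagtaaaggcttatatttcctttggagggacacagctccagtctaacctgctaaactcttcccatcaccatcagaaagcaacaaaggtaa
A match to TGANTCA was present for 6 of the 10 genes (these 5 and Serpinb5), against 7.81% of all 32851 windows. Serpinb8 and Serpinb11 each held 2. The former count is per gene and the latter share per window. Serpinb2 and Serpinb12 each have another window, not printed here. That of Serpinb2 also holds TGANTCA, and that of Serpinb12 does not. TTNNGCAA (10.8% of all windows) was found for Serpinb2 and Serpinb12, and the loose NF-kB-like pattern (50.8%) for Serpinb5 and Serpinb8. With any bases allowed in its middle, that pattern does not single out NF-kB sites. The RefSeq start of Serpinb7 used for its window lies inside the longer GENCODE gene (107399655 to 107452689). The same holds for Serpinb11 (107361198 to 107380475) and for Serpinb3b of the windows before (107153940 to 107278361, minus strand). These windows therefore do not cover every annotated start. A match is a run of letters and no measurement of binding. The groups in which these genes were high differed, as given next.

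Serpinb2, known as an inhibitor of the plasminogen activators, was the member with its highest level in basal cells. Its level there was 415, 398 and 328 CPM in replicates 1, 2 and 3, against 161, 113 and 108 in spinous and 32.7, 22.2 and 27.1 in granular cells. It fell at both steps without overlap between libraries. From basal to spinous cells the change was -1.22 log2 ± 0.11 (SE, edgeR quasi-likelihood test, adjusted p = 2.4e-09), and from spinous to granular cells -1.41 ± 0.15 (adjusted p = 3.89e-08). Fold changes from edgeR are scaled by TMM, which assumes that most genes are stable, whereas levels in CPM are shares of all UMIs of a group. The 2 therefore differ, and scaling to total UMIs moved the median of all genes by -0.38 log2 for spinous against basal, by -0.78 for granular against spinous and by 0.14 for follicle against basal cells. In DESeq2 these moves were -0.11, 0.15 and 0.08.

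**Figure D2:**
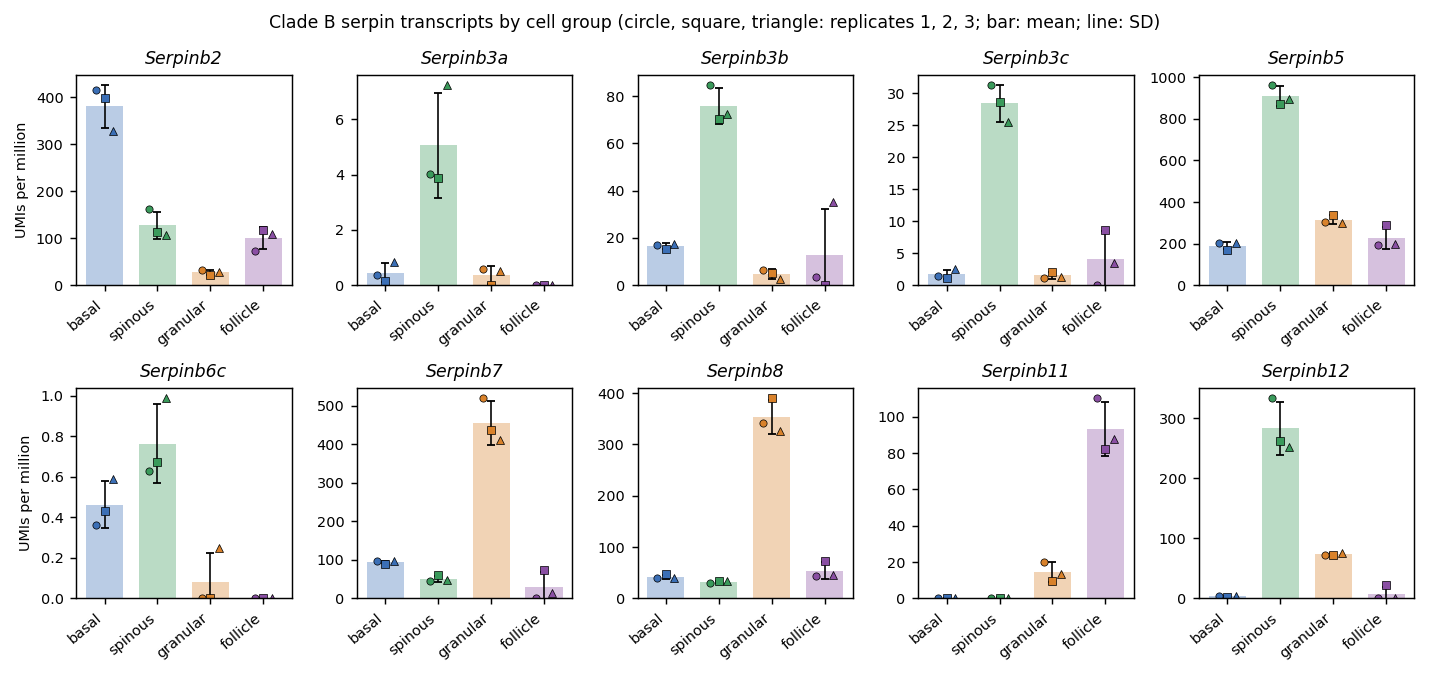
Each panel gives 1 gene in CPM on its own linear axis, with points for the 3 libraries, bars for their mean and lines for the SD. Serpinb2 stands highest in basal cells, Serpinb3a, Serpinb3b, Serpinb3c, Serpinb5 and Serpinb12 in spinous cells, Serpinb7 and Serpinb8 in granular cells and Serpinb11 in follicle cells.

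A single spinous cell of replicate 1 held 350 UMIs of Serpinb2 among 26935, while the next richest cell of any group held 32. Without it the spinous level of that library was 117 instead of 161. The same cell had 31 UMIs of the stress keratin Krt16 and 154 of Sprr1b, both induced in wounded or inflamed epidermis. Among the 15 spinous cells with at least 0.1% of UMIs in Krt6a, Krt6b and Krt16 (2, 0 and 13 per replicate), Serpinb2 reached 1592 CPM with this cell. Without it the level was 191 (exact Poisson 95% interval 138 to 259, counting error only), against 111 (108 to 115) in the other 2280 spinous cells. With so few cells and none in replicate 2, no test over libraries was made. Serpinb12 stood at 154 (109 to 212) over all 15 cells and at 68.4 (38.3 to 113) in the 14, against 275 (269.8 to 281) in the others. Serpinb7 stood at 122 (82.2 to 174) over all 15 cells, against 51.8 (49.4 to 54.2) in the others. Without the cell richest in Serpinb7, a different cell from replicate 3 with 8 of its UMIs, the level was 98.9 (62.0 to 149.7).

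Serpinb5, or maspin, a member without inhibitory activity that is known as a tumour suppressor of epithelia, was most abundant in spinous cells. Its level was 200.4, 169 and 202 CPM in basal, 965, 870.1 and 895 in spinous and 305, 338 and 299 in granular cells of replicates 1 to 3. The spinous libraries were all above all others. Serpinb5 rose 6.24-fold in spinous against basal cells (log2 2.64 ± 0.12, edgeR adjusted p = 1.97e-14) and fell by 0.76 ± 0.12 log2 in granular cells (adjusted p = 5.64e-06). That fall was 1.53 when scaled to total UMIs. After thinning every cell to 2000 UMIs, 80.0% of spinous cells held a Serpinb5 UMI (exact 95% interval 78.3 to 81.7), against 29.7% of basal cells (27.8 to 31.7). In immune cells, taken here as the background from free RNA, the share was 1.67% (0.0422 to 8.94). Unthinned shares were 97.3%, 70.1% and 4.69%, at median depths of 14720, 8452 and 4670.5 UMIs.

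Serpinb12, an inhibitor of trypsin-like enzymes, showed the largest difference between spinous and basal cells among the 9 tested members. It stood at 3.82, 2.31 and 3.65 CPM in basal cells and at 333, 262 and 253 in spinous cells. Spinous cells were higher 111-fold (log2 6.80 ± 0.18, edgeR adjusted p = 1.17e-17). The ratio of summed levels was 84.5 (95% counting interval 66.6 to 109) on 9746 against 68 UMIs. In granular cells its level was 72.4, 71.9 and 75.4, lower than in spinous cells by 1.14 ± 0.13 log2 (adjusted p = 1.36e-07). In DESeq2 this fall was still called, with the highest adjusted p of all settings (0.0447, lowest 3.26e-31).

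The Serpinb3 genes, counterparts of the human squamous cell carcinoma antigens that inhibit lysosomal cysteine proteases, were all highest in spinous cells. Serpinb3b had 16.9, 15.1 and 17.4 CPM in basal, 84.6, 70.5 and 72.3 in spinous and 6.53, 4.94 and 2.46 in granular cells. It rose by 2.57 ± 0.14 log2 (edgeR adjusted p = 6.78e-13) and then fell by 3.39 ± 0.25 (adjusted p = 8.13e-11). Serpinb3c had 1.45, 1.15 and 2.47 in basal, 31.3, 28.7 and 25.5 in spinous and 1.19, 2.12 and 1.23 in granular cells. Its rise was 4.35 ± 0.20 log2 (adjusted p = 2.3e-14) and its fall 3.40 ± 0.31 (adjusted p = 2.4e-09). Serpinb3a rested on 187 UMIs in spinous, 10 in basal and 3 in granular cells of all libraries. Its spinous level of 4.04, 3.88 and 7.25 CPM was above that of basal cells by a ratio of 11.02 (5.86 to 23.4, counting interval) and above that of granular cells by a ratio of 15.1 (5.07 to 73.7). Both of these differences were called (adjusted p = 3.06e-08 and 0.000173).

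Serpinb7, also called megsin, whose loss in people causes a thickened skin of palms and soles, was highest in granular cells. Its level was 96.7, 90.2 and 96.6 CPM in basal, 46.2, 60.3 and 48.0 in spinous and 519, 437 and 410.1 in granular cells. Thus it was low in the middle of the series: every spinous library lay below every basal one, and every granular library above both. The granular rise was 15.0-fold (log2 3.91 ± 0.17, edgeR adjusted p = 4.48e-15). The lower spinous level was small (log2 -0.49 ± 0.16, adjusted p = 0.009). That call was lost in DESeq2 (adjusted p = 0.435), without library as a block (0.0728) and without replicate 3 (0.085), over a range of 4.76e-05 to 0.435.

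Serpinb8, an inhibitor of furin-like enzymes whose loss in people causes peeling skin, was also highest in granular cells. Levels were 38.9, 46.7 and 39.5 CPM in basal, 30.6, 34.0 and 34.0 in spinous and 343, 391 and 327 in granular cells. The granular rise was 18.3-fold (log2 4.19 ± 0.09, edgeR adjusted p = 9.35e-20). At 2000 UMIs per cell, 49.9% of granular cells (44.9 to 54.8) had a UMI, against 6.73% of basal and 6.57% of spinous cells. The share in immune cells was 5.00% (1.04 to 13.9), and this interval holds the basal and spinous shares. These shares alone therefore do not set basal or spinous cells apart from immune cells. Unthinned shares were 93.4%, 23.8%, 33.5% and 10.9% in the order granular, basal, spinous and immune. Immune cells held 9 UMIs of Serpinb8. Of more abundant members they held 10 of Serpinb5, 3 of Serpinb7, 2 of Serpinb12 and 1 of Serpinb2. Whether the immune UMIs of Serpinb8 came from free RNA was not tested. Spinous against basal cells gave no call (log2 0.04 ± 0.09, adjusted p = 0.704). The summed level of 5 Langerhans cell markers was 712 to 929 CPM in granular and 132 to 189 in spinous cells. Of the granular sum 704 to 866 CPM was Epcam, and the defining gene Cd207 was at 0, 0.705 and 0 CPM in replicates 1 to 3. The other 3 markers were higher in granular replicate 2, the library with the highest Serpinb8, than in its spinous cells, with Cd74 at 56.8 against 9.41, H2-Aa at 25.7 against 9.93 and H2-Eb1 at 17.3 against 4.40 CPM. In granular replicates 1 and 3 each of these 3 was at 0.594 to 3.94 CPM. The part of these markers in the Serpinb8 level was not tested. In immune cells Serpinb8 stood at 27.9 CPM. The sign of the spinous difference changed with the scaling, to -0.34 with total UMIs (adjusted p = 0.00398), and it was 0.56 when cycling basal cells were left out (adjusted p = 8.76e-05).

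**Figure D3:**
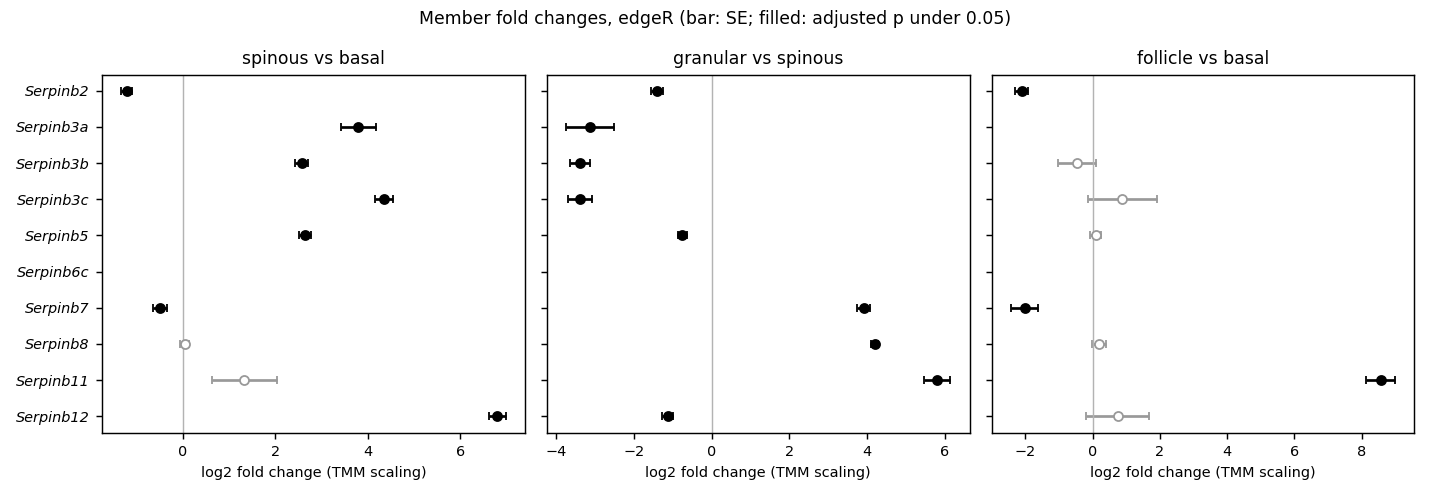
Points are log2 fold changes of each gene from edgeR with TMM scaling and bars are their SE, filled where the adjusted p is under 0.05. Serpinb12 gives the largest rise into spinous cells (6.80), Serpinb11 the largest into granular (5.81) and follicle cells (8.56), while Serpinb6c was not tested and Serpinb3a, at 0 UMIs in follicle cells, is not drawn there.

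Across all genes, 68.6% of 11354 tested changed between spinous and basal cells, 35.8% higher and 32.8% lower. Among the 9 tested members 5 were higher, 2 lower and 2 not called, which is near that background. Scaled to total UMIs, the split over all genes was 2539 higher and 5806 lower in place of 4064 and 3724. Between granular and spinous cells 68.2% changed (30.8% higher, 37.4% lower), and 3 members were higher and 6 lower. There the split was 2011 and 7061 with total UMIs in place of 3497 and 4252, and 3652 and 3454 in DESeq2. The members' median change was 2.57 and -1.14 log2 in the 2 comparisons, beside 0.02 and -0.24 over all genes tested. Both comparisons use the spinous libraries. A gene that is high only there moves up and then down by construction.

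Serpinb11, whose mouse form is known to inhibit trypsin-like proteases, was concentrated in follicle cells. It had 110.4, 82.4 and 87.7 CPM there, on 33, 19 and 25 UMIs. Granular cells held 20.2, 9.52 and 13.6, spinous cells 0.504, 0.299 and 0.423, and basal cells 4 UMIs in all. Follicle, granular and spinous libraries did not overlap with each other. Basal replicate 1 had 0 UMIs, which allows 0.546 CPM, above all 3 spinous values, so spinous and basal cells were not separated. Follicle cells exceeded basal cells by a ratio of 495 (95% counting interval 186 to 1862), and edgeR gave log2 8.56 ± 0.43 (adjusted p = 4.13e-12). The fit and its 14 alternatives gave 8.05 to 9.39.

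The follicle signal of Serpinb11 came from 30 of 122 cells, or 24.6%. At 2000 UMIs per cell 15.8% of follicle cells held a UMI (9.63 to 23.8), 0.0461% of basal cells (0.00117 to 0.256) and 0 of 60 immune cells (up to 5.96). Cells with Cd34, known from the stem cells of the bulge, had 206 CPM (148 to 278, counting interval) and cells with Fst 69.2 (50.1 to 93.2). These subsets share cells, so their difference was not tested. Cells with 3 or more of the 5 transcripts had 132 (89.6 to 187) and those with exactly 2 had 79.4 (58.1 to 106). Markers of other cell types were also higher in the follicle group than in basal cells. The sum of 5 sebaceous and upper follicle genes was 1121, 433 and 2449 CPM in replicates 1 to 3 against 95.3 to 122, most of it Krt79. That of 5 fibroblast genes was 104, 26.0 and 59.6 against 0.144 to 18.4, with Lum at 0. That of 5 melanocyte genes was 3.35 to 140.3, highest in replicate 3, against 0.576 to 2.24, with Mlana at 0. The Langerhans sum was 334 to 425 against 116 to 141, nearly all of it Epcam, with Cd207 at 0. The part of these markers in the follicle levels of Serpinb11 and of the other members was not tested.

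The granular Serpinb11 level was higher than the spinous one by a ratio of 34.3 (19.6 to 64.7) on 116 against 14 UMIs (edgeR log2 5.81 ± 0.34, adjusted p = 9.49e-13). The spinous and basal levels differed by a ratio of 2.06 (0.648 to 8.61), which was not called (adjusted p = 0.0998). The summed level of the 5 follicle markers was 67.5 to 102 in granular and 35.2 to 55.0 CPM in spinous cells. Its part in the granular level was not tested.

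In follicle cells, 15.4% of 11354 genes changed against basal cells, 9.06% higher and 6.32% lower. Among the 9 tested members 1 was higher, 2 lower and 6 not called. The median of the members was 0.09 log2 beside -0.02 over all genes. Total UMIs gave 1253 genes higher and 434 lower in place of 1029 and 718, and DESeq2 gave 1317 and 510. Without replicate 2 the numbers were 677 and 437, and without replicate 3 they were 619 and 374.

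Serpinb2 fell in follicle cells, to 73.6, 117 and 109 CPM (log2 -2.11 ± 0.20, edgeR adjusted p = 6.33e-08), and every follicle library was below every basal one, while follicle and spinous libraries overlapped. Serpinb7 had 0, 73.7 and 14.03, and its fall of 2.02 ± 0.41 log2 was called (adjusted p = 0.00122). Its 17 UMIs in replicate 2 lay in 4 cells and its 4 UMIs in replicate 3 in 1 cell. The 0 in replicate 1 allows up to 10.0 CPM. The call was lost when cells needed 1000 genes and at most 5% mitochondrial UMIs (log2 -0.43, adjusted p = 0.576, range 2.58e-12 to 0.576).

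Serpinb7, Serpinb8 and Serpinb12 were all highest in the follicle cells of replicate 2. Serpinb8 had 43.5, 73.7 and 45.6 CPM and Serpinb12 had 0, 21.7 and 0. In that library the summed granular markers were also higher in follicle cells, at 1105 CPM against 23.4 and 73.7 in replicates 1 and 3, and their part in these levels was not tested. Serpinb8 was not called in follicle against basal cells (log2 0.20 ± 0.21, 95% interval -0.22 to 0.62), but was called without cycling basal cells (log2 0.74, adjusted p = 0.0336). Serpinb5, with 194, 290.4 and 199.99, did not pass either (log2 0.09, interval -0.21 to 0.40). For both genes follicle and basal libraries overlapped. Serpinb3b had 3.35, 0 and 35.1 CPM, so 1 library carried nearly all of it. It was not called (log2 -0.46 ± 0.57), whereas without replicate 3 it was lower (log2 -3.26, adjusted p = 0.0279, range 0.0279 to 1). Serpinb3c had 3 follicle UMIs and Serpinb12 had 5, and neither was called (log2 0.88 ± 1.02 and 0.74 ± 0.93). Serpinb3a was not detected in 122 follicle cells, which allows up to 3.68 CPM, above its basal level of 0.444.

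Finer bins were then drawn along the path from basal to granular cells. The basal cells were split at 0.1% of UMIs in Krt1 and Krt10, the spinous cells at 0.5% in Krt5 and Krt14 and at 0.2% in Lor, and the granular cells at 5% in Lor. The splits at 0.1% and 0.2%, and every test between finer bins, were added after the data had been seen. Serpinb12 had means of 2.15 ± 0.534, 8.79 ± 2.34, 122 ± 57.8 and 301 ± 44.2 CPM (SD, n = 3) from the first basal to the second spinous bin. For Serpinb2 the means went from 397 ± 45.5 to 121 ± 33.4 over the same bins. Serpinb7 and Serpinb8 were already higher in every library in the spinous cells with 0.2% to 1% Lor (5, 47 and 39 cells) than in those with less. Serpinb7 had 202, 298 and 180.1 there, against 43.7, 45.8 and 37.9 in the spinous cells with less Lor. Serpinb8 had 132, 91.5 and 95.7 against 29.3, 30.8 and 30.2. Serpinb3b was lower in every library, with 20.9, 23.2 and 23.9 against 86.2, 74.8 and 77.0. Differences between these 2 spinous bins were not tested.

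**Figure D4:**
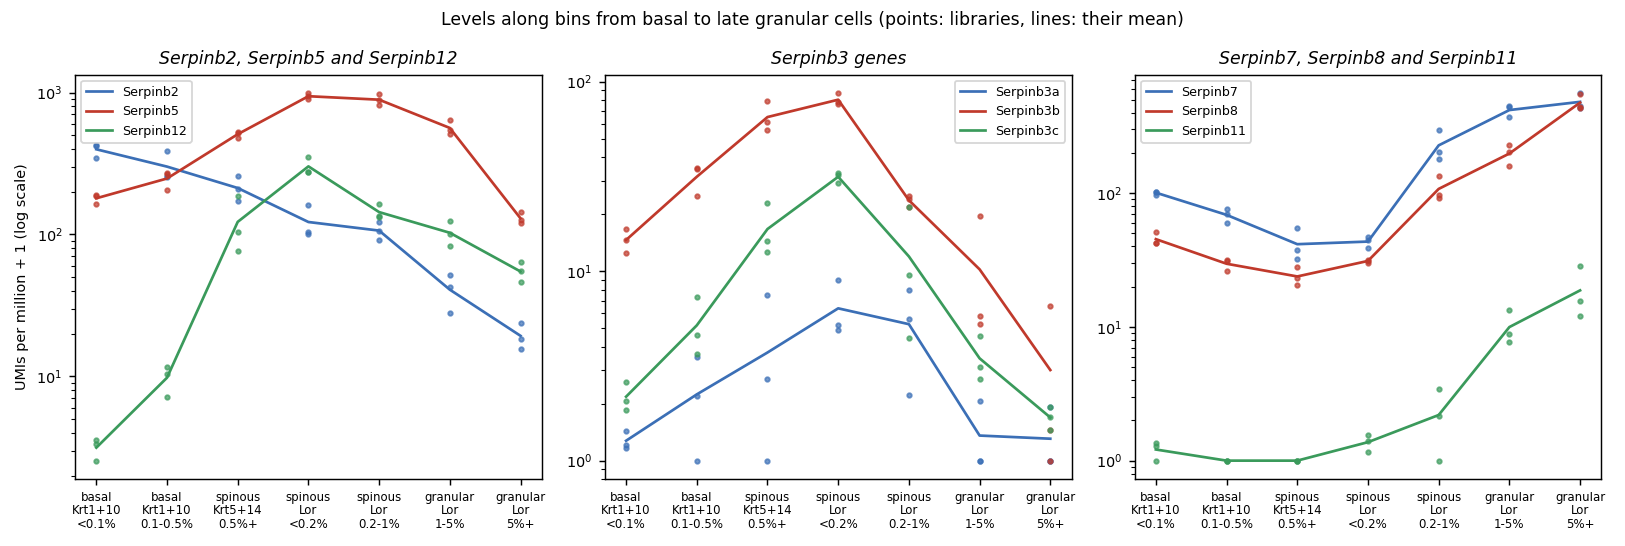
The y axis is CPM plus 1 on a log scale, and the x axis holds 7 bins from basal to granular cells, with points for libraries and lines for their means. Serpinb2 is lower from bin to bin in its means, Serpinb5, Serpinb12 and the Serpinb3 genes peak in spinous cells with little Lor, and Serpinb7 and Serpinb8 climb from the spinous bin with 0.2% to 1% Lor onward.

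Within the basal layer, 442 cycling cells (at least 0.05% of UMIs in 10 cell cycle genes such as Mki67) were compared with the other 1870. Serpinb8 was higher in cycling cells, with 78.7, 112 and 71.2 CPM against 25.4, 33.0 and 25.4. The libraries did not overlap, and edgeR gave log2 1.55 ± 0.15 (adjusted p = 3.08e-09, 8 tested members, 9977 genes). The settings tried gave 1.49 to 1.64. Serpinb2 was lower, at 283, 344 and 252 against 459.9, 409.8 and 362 (log2 -0.55 ± 0.15, adjusted p = 0.00541), a call lost without replicate 3 (0.0656). Serpinb3b was not called (log2 -0.77, adjusted p = 0.0594), but was without the low-count filter (0.00282) and without replicate 1 (0.0469). Thus 1 member was higher, 1 lower and 6 not called. Of all genes tested 31.5% changed here, 16.9% higher and 14.6% lower. Median depth was 12041.5 UMIs in cycling and 8148.5 in other basal cells, and its part was not tested.

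**Figure D5:**
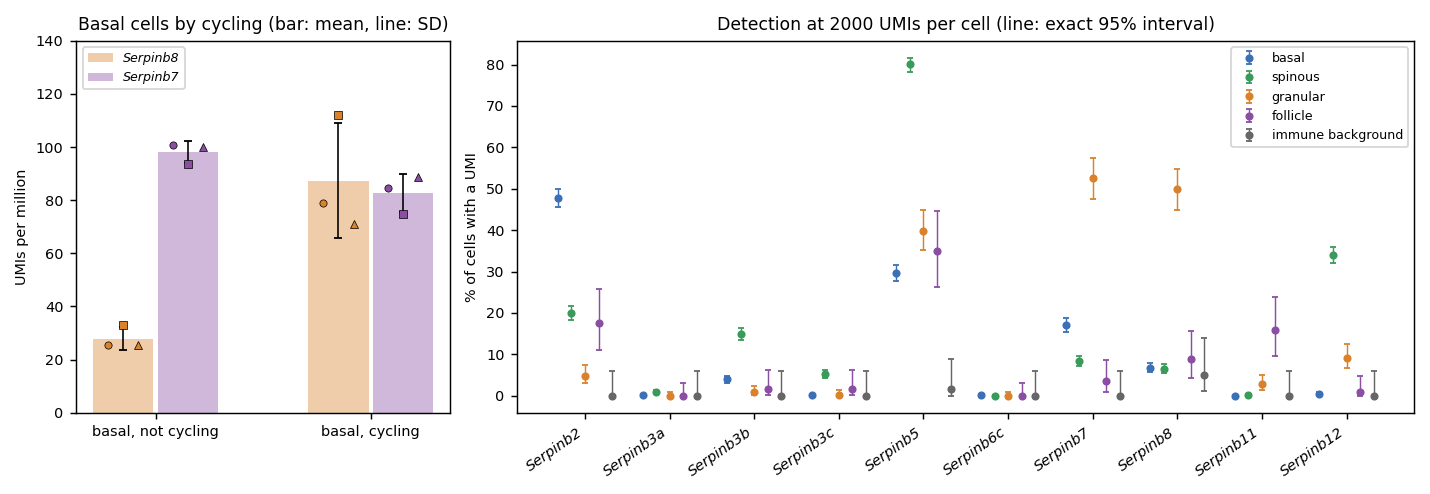
The left panel gives CPM of Serpinb8 and Serpinb7 in cycling and other basal cells (bars are means, lines SD, points the 3 libraries), and the right panel the percentage of cells with a UMI at 2000 UMIs per cell with exact 95% intervals. All 3 Serpinb8 values are higher in cycling cells (71.2 to 112) than in the others (25.4 to 33.0), and the Serpinb11 share is 15.8% in follicle cells.

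Among spinous cells, those with less than 0.5% of UMIs in Krt5 and Krt14 (2099) were compared with those that kept more (196). Serpinb12, at 348, 267 and 266 against 75.4, 187 and 103 CPM, rose by 1.56 ± 0.21 log2 (edgeR adjusted p = 1.39e-06). Serpinb5, at 992, 891 and 929 against 479, 522 and 520.5, rose by 1.22 ± 0.13 (adjusted p = 8.01e-08). Serpinb3c rose by 1.34 ± 0.26 (adjusted p = 0.000183) and Serpinb8 by 0.86 ± 0.22 (adjusted p = 0.00276). In all, 5 of 8 tested members were higher and 1 lower, where 20.6% of all genes were higher, 15% lower and 35.6% changed. With total UMIs the split over all genes was 975 higher and 3031 lower in place of 2052 and 1496, and with DESeq2 1460 and 2068. The rise of Serpinb3b (log2 0.64, adjusted p = 0.0199) was lost in DESeq2 (0.405), with total UMIs (0.321), without the library block (0.0708) and without replicate 3 (0.119). The fall of Serpinb2 (log2 -0.48, adjusted p = 0.0245) was lost without the block (0.0825) and without replicate 2 (0.540) or 3 (0.0891). Serpinb7 was not called (adjusted p = 0.0596), but was without the low-count filter (0.00456) and without replicate 1 (0.0341).

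Among granular cells, the 217 with at least 5% Lor were compared with the 207 with less. Serpinb8 rose from 159, 229 and 203 to 442, 548 and 432 CPM (log2 1.95 ± 0.13, edgeR adjusted p = 2.1e-12), without overlap. Serpinb5 fell from 636, 539.7 and 509 to 125, 142 and 119 (log2 -1.40 ± 0.14, adjusted p = 7.03e-09). Serpinb7 was higher by 0.91 ± 0.18 (adjusted p = 0.000296) and Serpinb11 by 1.44 ± 0.32 (adjusted p = 0.0011), both on TMM scaling. Their levels in CPM overlapped between the bins, with 27.5, 11.1 and 14.6 against 6.75, 7.86 and 12.3 for Serpinb11. With total UMIs, which moved the median of all genes by -0.70, both calls were lost (0.344 and 0.06), and Serpinb2 (log2 -1.13, adjusted p = 0.00131) and Serpinb12 (log2 -0.86, adjusted p = 0.00419) were lower. Thus 3 of 8 members were higher and 1 lower, where 15.2% of all genes were higher, 14.9% lower and 30.1% changed. The split over all genes was 766 higher and 5025 lower with total UMIs and 1914 and 768 in DESeq2, in place of 1518 and 1484. Without replicate 2 Serpinb3b was also lower (log2 -3.99, adjusted p = 0.0187).

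Serpinb6c, a relative of Serpinb6a on chromosome 13, gave 39 UMIs in all, 28 of them in spinous, 10 in basal and 1 in granular cells. It did not pass the filter on low counts and was not tested. Its level of 0.631, 0.672 and 0.986 CPM in spinous and 0.364, 0.432 and 0.588 in basal cells is a handful of UMIs per library.

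At 2000 UMIs per cell, 52.6% of granular cells (47.6 to 57.5) held a UMI of Serpinb7, against 0 of 60 immune cells (up to 5.96). Unthinned, the shares were 92.2% and 1.56%, at median depths of 19883 and 4670.5 UMIs. A spinous or granular cell showed a median of 4 of the 10 genes, a basal cell 2 and a follicle cell 1, and median depth was also lower in basal and follicle cells.

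Other clade B genes were listed for comparison. Of 16 such genes, 3 could be tested. Serpinb13, between Serpinb12 and Serpinb3a on chromosome 1 and known as an inhibitor of cathepsin L, was higher in spinous cells at 10.6 ± 0.541 CPM against 3 basal UMIs (ratio 74.1, 25.2 to 361 on 377 UMIs, adjusted p = 1.75e-12). Serpinb6a, an intracellular inhibitor, was lower in spinous cells (log2 -2.36 ± 0.10, adjusted p = 2.55e-15), as was Serpinb1a, an inhibitor of neutrophil elastase (log2 -1.42 ± 0.19). In granular cells both were lower again (log2 -1.997 ± 0.18 and -2.67 ± 0.62, the latter on 3 granular UMIs). In follicle cells Serpinb6a was lower (-0.80 ± 0.14) and the other 2 were not called.

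The counts of the lists that follow stand beside all genes tested, of which 68.6% changed in spinous (35.8% higher, 32.8% lower), 68.2% in granular (30.8% and 37.4%) and 15.4% in follicle cells (9.06% and 6.32%), with medians of 0.02, -0.24 and -0.02 log2. Of 14 tested trypsin-like and chymotrypsin-like genes 13 were higher and 1 lower in spinous cells, with a median of 4.07 log2. In this list the kallikreins Klk5 (log2 7.66 ± 0.32) and Klk7 (7.10 ± 0.40), which cut the links between dead cells, rose most, and Klk10 fell (-1.74 ± 0.37). In granular cells 13 were higher and 1 lower (median 3.60), with Klk6 (6.61 ± 0.14) and Klk9 (6.46 ± 0.11) in front and Tmprss4 lower (-1.84 ± 0.12). In follicle cells 4 were higher and 10 were not called (median 1.46). Of 9 cathepsin genes 3 rose, 4 fell and 2 were not called in spinous cells (median -0.26), a share near that of all genes. In granular cells 5 rose, 2 fell and 2 were not called (median 1.76). The share that changed in either direction was again near that of all genes. More of these genes rose than fell, whereas of all genes 30.8% rose and 37.4% fell. The lysosomal protease Ctsl rose by 5.09 ± 0.16. In follicle cells 2 were higher and 7 were not called (median 0.23), and 4 were higher both in DESeq2 and with total UMIs.

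Of 4 tested genes of plasminogen activation, the route that Serpinb2 acts on, 1 rose, 2 fell and 1 was not called in spinous cells, all 4 fell in granular cells, and 2 fell and 2 were not called in follicle cells. Their medians were -0.35, -2.75 and -0.68 log2. Plau, the urokinase gene, rose by 0.99 ± 0.13 log2 in spinous and fell by 4.18 ± 0.37 in granular cells. Of 6 cell death proteases 2 rose, 3 fell and 1 was not called in spinous cells, 2 rose and 4 were not called in granular cells, and 1 rose and 5 were not called in follicle cells. Their medians were -0.77, -0.29 and -0.30. Casp14, the caspase of cornification, rose in spinous (3.23 ± 0.16) and granular cells (2.65 ± 0.12). Of 7 serpins of other clades, 2 rose, 3 fell and 2 were not called in spinous cells, and 2 rose, 2 fell and 3 were not called in granular cells. Serpina12, known as vaspin, rose at both steps (5.88 ± 0.54 and 5.29 ± 0.41), and in follicle cells 4 rose and 3 were not called. The medians of these serpins were -0.52, -0.21 and 2.12. Of 9 genes beside the serpin clusters 5 rose, 3 fell and 1 was not called in spinous cells, 4, 2 and 3 in granular cells and 1, 1 and 7 in follicle cells, with medians of 0.56, 0.85 and 0.10. No gene named here from the lists changed sign with total UMIs or in DESeq2. The counts of higher and lower trypsin-like genes in spinous and granular cells were the same under both. With total UMIs 3 genes beside the clusters rose and 4 fell in spinous cells as in granular cells. Cathepsin genes that fell were 6 in spinous and 3 in granular cells. Of the cell death proteases 1 rose and 4 fell in spinous and 1 rose and 2 fell in granular cells. Of the serpins of other clades 1 rose and 4 fell in spinous cells, and of the plasminogen genes 3 fell in spinous and 1 in follicle cells. In DESeq2 1 cell death protease and 1 serpin of another clade rose in spinous cells, and 5 trypsin-like genes rose in follicle cells. There the genes beside the clusters that rose were 4 in spinous, 5 in granular and 2 in follicle cells.

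By correlation of log2 levels over the 12 profiles of 3 libraries and 4 groups, among 5373 genes with a mean of at least 20 CPM, Serpinb5 was most like Bag1 (r = 0.99), Mcur1 and Mvk, and among the genes most like Serpinb8 were Sec14l1 (0.99) and Cgrrf1. Serpinb11 was most like Barx2 (0.98), Nfatc1 and Runx1, and Serpinb12 most like Ptgs1 (0.99), Abhd5 and Skint5. Serpinb2 was most like Popdc3 (0.98), Fcgbp and Tgfbr3, and Serpinb7 most like Supt6 (0.98), Amotl1 and Cd3eap. The nearest to Serpinb3a was Polr3g (0.98) and to Serpinb3b Ldah (0.96). The 12 points share libraries, so these are descriptions.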

How the data were processed

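Each library's filtered matrix holds UMI counts per gene and cell, which the authors deposited as raw counts made with Cell Ranger 3.1.0 on mm10, per the submitters' processing notes. The labels describe V(D)J kit libraries with short cDNA added back. No other steps are given in the sources used here. The members and lists were chosen with earlier results of these data known.

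The limits of 500 or more genes and 10% or less mitochondrial UMIs left 5340 of 6078 barcodes, and the deposited counts sum to 68583868 UMIs. Scrublet in scanpy 1.11.5 marked 33 of them (0.618%), which were kept. Raw counts were summed per library and group and tested with edgeR 4.0.16 (limma 3.58.1, R 4.3.3): TMM scaling, filterByExpr, quasi-likelihood test, library as a block, Benjamini-Hochberg adjustment over all genes tested, called at adjusted p under 0.05. The 10 genes that define the groups were left out of the tests, and in the finer bins the 10 cell cycle genes too. The library number pairs the groups because the same library gives every group. Deviations from group means correlated at 0.210 to 0.273 for spinous and basal, 0.0964 to 0.146 for granular and spinous and 0.00388 to 0.173 for follicle and basal sums.

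Levels (CPM) were computed as a gene's share of all UMIs of a group in 1 library. A count of 0 allows 3 UMIs, and 95% intervals of pooled levels (Poisson) and shares (Clopper-Pearson) cover counting error only. Cells were thinned to 2000 UMIs for shares. All 10 genes are named. List genes are the called ones with the largest change, at most 3 in each direction, and like genes the top 3 by correlation of log2(CPM + 1), some of which are not reported here. On simulated counts for spinous against basal (10763 genes tested), 94.9% of genes changed 1.5-fold were recovered and 100% at 2-fold and 4-fold. Of 10563 unchanged genes 10 were called. The changed genes (59, 74 and 67 for these folds) were drawn only from those with a mean above 20 CPM. All other genes kept the same mean share in every group, without a library effect, whereas 68.6% of genes changed in the data. These rates therefore do not carry over to the real comparison or to members as low as Serpinb3a. DESeq2 1.42.0 was an alternative. Sequences were aligned with Biopython 1.88, and gene positions come from GENCODE M21, which matched 99.6% of gene identifiers.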

Additional observations from a re-analysis of the deposited data

Results flagged for a closer look

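Serpin UMIs also occurred in cells that belong to none of the 4 groups. In the 123 such cells that are not immune, pooled levels were 116 CPM for Serpinb2, 213 for Serpinb5, 32.4 for Serpinb7, 32.4 for Serpinb8, 20.5 for Serpinb12, 19.4 for Serpinb3b and 16.2 for Serpinb3c, each above what a count of 0 allows. In the 64 immune cells Serpinb5 stood at 31.0 and Serpinb8 at 27.9 CPM, on 10 and 9 UMIs. Serpinb6d, another clade B gene, had 91 of its 94 UMIs in 1 unassigned cell of replicate 3, which held 9774 UMIs in all, with 580 of Scd1, 242 of Elovl4 and 51 of Krt79.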

How the results depend on the processing

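Most member folds kept their direction and side of the threshold (507 values), 14 lost and 10 gained a call, and 19 changed sign. The cause was not tested. With total UMIs, 2539 genes were higher and 5806 lower in spinous cells (4064 and 3724 with TMM), 2011 and 7061 in granular cells, and 434 were lower in follicle cells. Follicle genes higher were 388 under stricter definitions, 387 with 3 or more markers and 619 to 838 without 1 replicate, and lower 426 at 1000 genes and 5% mitochondrial UMIs and 374 to 657 without 1 replicate. Members lower in spinous cells were 1 in DESeq2 and without the replicate block, and 1 to 2 without 1 replicate. In follicle cells 2 members were higher without cycling basal cells and 1 lower at 1000 genes and 5%. In cycling cells 2 were lower without the low-count filter (0 to 2 without 1 replicate). In late spinous cells 0 were lower without the replicate block (0 to 1 without 1 replicate), and in late granular cells 1 was higher and 3 lower with total UMIs (1 to 2 lower without 1 replicate). Sign changes were as follows. Serpinb8 in spinous cells was -0.074 in DESeq2, -0.34 with total UMIs, -0.037 to 0.12 without 1 replicate and -0.075 at 1000 genes and 5%. In follicle cells Serpinb3a was 0.66 in DESeq2, Serpinb3b -3.26 to 0.050 without 1 replicate, 0.49 under stricter definitions and 0.35 with 3 or more markers, and Serpinb3c -0.43 to 1.43 without 1 replicate. Serpinb5 there was -0.17 to 0.19 without 1 replicate, -0.35 under stricter definitions, -0.23 with the follicle defined last and -0.34 with 3 or more markers, Serpinb8 -0.20 at 1000 genes and 5%, and Serpinb12 -7.02 to 1.48 without 1 replicate. Serpinb11 in cycling cells was 0.13 in DESeq2 and -2.35 to 0.95 without 1 replicate, and Serpinb12 in late granular cells 0.024 in DESeq2 and -0.39 to 0.067 without 1 replicate. The 3-marker follicle cells, the removal of stress-keratin cells and the finer-bin tests were chosen after seeing the data. The alternatives planned for stress-keratin spinous cells were not run, since replicate 2 had 0 such cells and replicate 1 had 2. Follicle sums, with 814649 UMIs in all, limit what can be detected there.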
